A study of Mus musculus with 12 samples.

Results

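The nuclear-encoded oxidative phosphorylation genes followed here were the 42 mouse genes whose Ensembl identifiers were listed by function, as subunits of the respiratory chain complexes and of ATP synthase together with cytochrome c. Of these, 41 were among the 10481 genes of the deposited table, and Atp5l was not analysed here. The 41 comprised 8 genes of complex I, 2 of complex II, 7 of complex III (counting Cyc1, its cytochrome c1), the soluble carrier Cycs, 10 of complex IV (counting Ndufa4) and 13 of ATP synthase, complex V. Symbols are those of the list, several of which have newer forms.

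Ribosome profiling sequences the stretch of mRNA that a translating ribosome shields from nuclease, so that the footprint count of a gene, its ribosome occupancy, depends on how much of its mRNA is present and on how many ribosomes each mRNA carries. Brain and spinal cord were taken at embryonic day 14.5 from the Taiwanese mouse model of spinal muscular atrophy (SMA), with 3 libraries for each tissue and genotype. Control embryos were Smn+/-; SMN2tg/0 and SMA embryos were Smn-/-; SMN2tg/0. Both groups thus carried the human SMN2 transgene, and the controls had also lost 1 of their mouse Smn alleles. By these genotypes, given in the study's methods, neither group was wild type, although the deposited counts label the controls WT. The tissues were whole organs, and in such bulk samples fewer cells of a type and less RNA per cell cannot be told apart. The mutated gene, Smn1, had no name in the tables used here, and which libraries are control or SMA rests on the labels.

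Complexes I to IV carry electrons from nutrients to oxygen and pump protons across the inner mitochondrial membrane, and complex V lets the protons flow back to make ATP. Most subunits are encoded in the nucleus, translated in the cytoplasm and imported, while a small core of subunits is encoded and translated inside mitochondria. Developing neurons use this pathway for outgrowth and synaptic activity, and neural progenitors depend more on glycolysis. Nuclear respiratory factor 1 (NRF1) and the ETS family factor GABP are known activators of many of these nuclear genes.

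Start-site sequences from RefSeq (assembly GRCm38.p6), running from 250 bases before to 50 bases after each start, were at hand for 30 of the 41 genes, in 33 windows. Both strands of each window were searched for the NRF1 motif (GCGCA, then any base, then GCGC) and the ETS motif CCGGAAG. The NRF1 letters occurred in 9 of the 33 windows (27.3%), against 4.60% of all 32851 windows in the table. The ETS letters also occurred in 9 of the 33 (27.3%), against 8.86% of all windows. In 3 windows both were found, and in none did they overlap each other. A match is a description of the letters, not evidence of binding. The windows of the 3 genes that encode ATP synthase subunit c, whose footprints were divided differently in brain and spinal cord, and that of Atp5h, a stalk subunit with both motifs, are printed 5′ to 3′ on the gene's strand with matches in capitals. All 4 genes lie on the minus strand, at chr11:96075582-96075881 for Atp5g1, chr15:102670998-102671297 for Atp5g2, chr2:73911277-73911576 for Atp5g3 and chr11:115419870-115420169 for Atp5h.
Atp5g1: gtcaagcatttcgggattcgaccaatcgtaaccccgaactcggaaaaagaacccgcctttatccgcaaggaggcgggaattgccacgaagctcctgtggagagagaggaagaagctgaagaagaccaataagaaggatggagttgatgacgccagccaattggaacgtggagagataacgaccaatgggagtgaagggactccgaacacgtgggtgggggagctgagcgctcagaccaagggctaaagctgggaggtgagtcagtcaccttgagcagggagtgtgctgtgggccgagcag
Atp5g2: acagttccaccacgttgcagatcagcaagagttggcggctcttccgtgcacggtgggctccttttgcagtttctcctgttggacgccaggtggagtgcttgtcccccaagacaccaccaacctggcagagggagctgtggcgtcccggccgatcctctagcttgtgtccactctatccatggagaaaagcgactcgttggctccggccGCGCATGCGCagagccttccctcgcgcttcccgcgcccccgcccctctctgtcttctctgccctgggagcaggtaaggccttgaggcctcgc
Atp5g3: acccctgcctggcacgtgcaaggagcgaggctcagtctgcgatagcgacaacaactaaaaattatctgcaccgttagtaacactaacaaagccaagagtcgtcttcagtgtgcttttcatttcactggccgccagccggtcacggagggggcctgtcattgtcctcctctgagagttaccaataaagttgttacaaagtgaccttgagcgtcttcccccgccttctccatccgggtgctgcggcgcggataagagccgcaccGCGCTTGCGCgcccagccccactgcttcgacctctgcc
Atp5h: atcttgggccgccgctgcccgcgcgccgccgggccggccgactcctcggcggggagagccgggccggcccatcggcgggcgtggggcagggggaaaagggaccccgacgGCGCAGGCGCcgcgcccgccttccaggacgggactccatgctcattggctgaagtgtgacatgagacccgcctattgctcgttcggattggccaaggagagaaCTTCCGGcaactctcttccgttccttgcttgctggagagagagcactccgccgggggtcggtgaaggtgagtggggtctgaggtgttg
The Atp5g1 window held neither motif. The capitals in Atp5g2, 42 bases before the start, and in Atp5g3, 12 bases after it, are NRF1 matches, the former reading the same on both strands. In Atp5h the NRF1 match began 141 bases before the start and the ETS match, read on the opposite strand, 38 bases before it.

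Library totals ranged from 3683842 to 12793955 counts, and every SMA spinal cord library was shallower than every control spinal cord library. Tissue identity held up in most libraries: the summed level of 8 Hox genes was 388.8 to 687.8 CPM (counts scaled to a common library size) in control spinal cord and 2.19 to 4.88 CPM in control brain. Control spinal cord library 1, the deepest, stood apart. The forebrain and midbrain gene Otx2 was at 41.1 CPM there, against 0.948 to 8.39 CPM in the other 5 spinal cord libraries and 87.4 to 133.9 CPM in brain. For each comparison that uses this library, the median and the number of genes that passed are also given without it. Of marker genes of other cell types, those of skeletal muscle had no named gene in the table (0 of 17), those of erythroid cells had 2 of 14 and those of vessels and meninges 1 of 13.

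The genes were among the most heavily translated of the table. Their raw counts lay between 89 and 9356 in single libraries. Per kilobase of exon, the median gene of the group stood at the 92.8th percentile of all genes, and 30 of the 41 were at or above the 90th percentile. They were also short, with a median exon length of 1908 bases against 3020 bases for all genes. Levels between genes are compared here in RPKM, which divides CPM by that length.

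Within complex I, the NADH dehydrogenase, the highest level per kilobase in control brain was that of Ndufv1, part of the NADH-binding site, at 129.9 ± 5.64 RPKM (SD, n = 3). The lowest was that of Ndufs1, an iron-sulfur subunit of the same arm, at 23.7 ± 2.54 RPKM. In complex II, succinate dehydrogenase, the flavoprotein Sdha had 33.6 ± 0.484 RPKM and the iron-sulfur subunit Sdhb 69.3 ± 1.60 RPKM. Complex III, which passes electrons to cytochrome c, ranged from 53.2 RPKM for the Rieske protein Uqcrfs1 to 115.0 RPKM for Cyc1. Cytochrome c itself, Cycs, had 24.1 RPKM and stood lowest of the 41 in percentile, at 64.3. In complex IV, cytochrome c oxidase, Cox4i1 had 343.9 ± 70.6 RPKM, the highest of the group, and Cox6c 51.6 RPKM. ATP synthase ranged from 46.7 RPKM for the membrane subunit Atp5j2 to 294.3 RPKM for Atp5h. The exon length joins all isoforms, which lowers the RPKM of a gene with long alternative exons, such as Ndufs1 with 8086 bases.

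**Figure D1:**
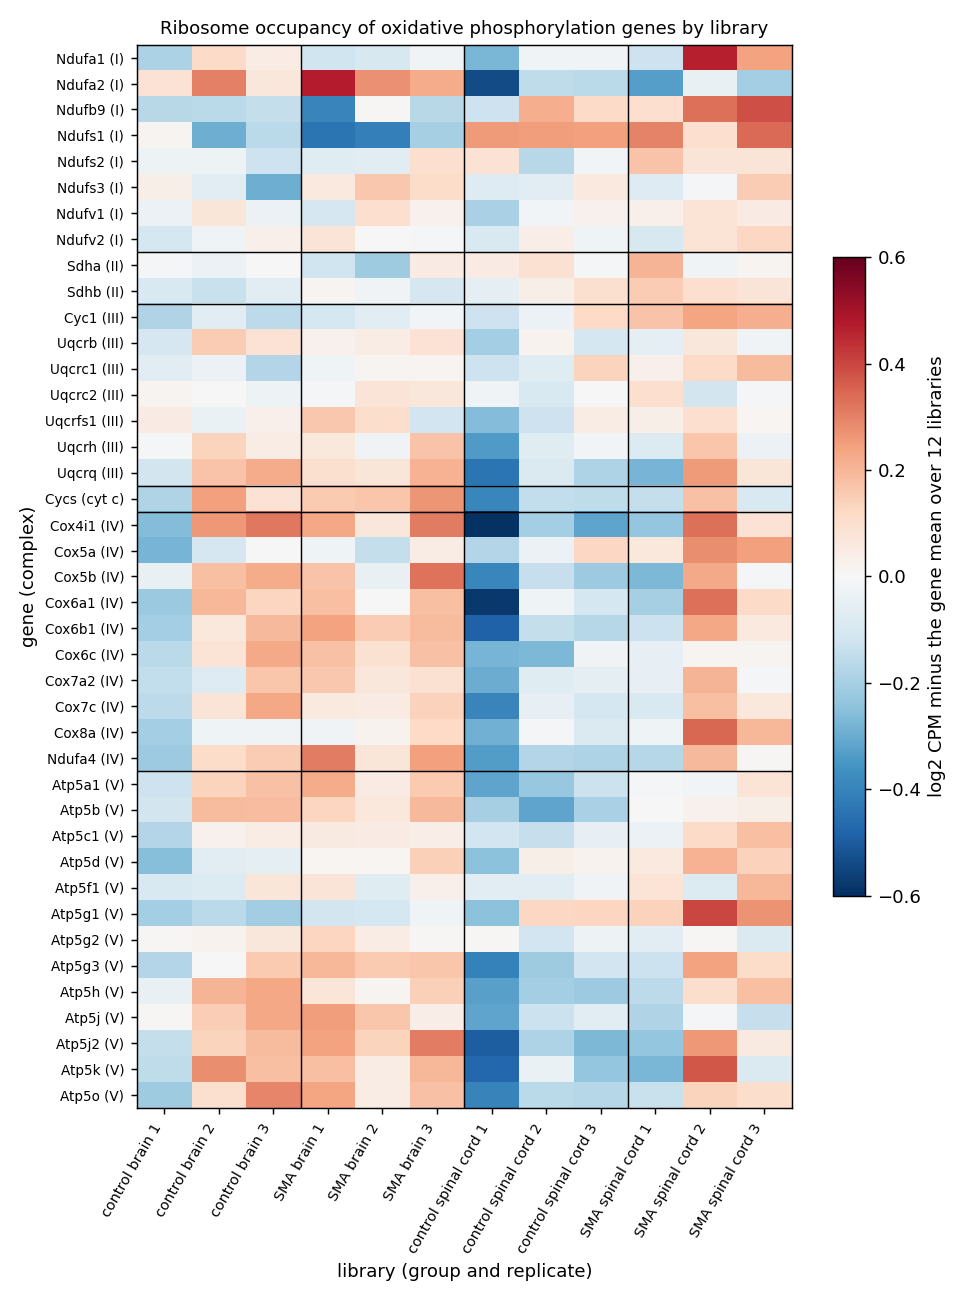
Heat map of the 41 genes (rows, ordered by complex) in the 12 libraries (columns, group and replicate). Colour gives log2 CPM minus the gene's mean over the 12 libraries, red above and blue below it. Control spinal cord library 1 is blue for most genes of complexes IV and V, and Ndufs1 is red in all 6 spinal cord libraries.

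The first question was whether SMA changed the occupancy of these genes in brain. No gene of the group had an unadjusted p below 0.05 by edgeR's quasi-likelihood test, where 1.77% of all genes did with a higher and 3.28% with a lower level in SMA. The smallest Benjamini-Hochberg adjusted p among the 41 was 0.902. Fitted log2 fold changes (SMA over control) ran from -0.19 for Ndufs1 to 0.22 for Ndufs3, and the median was 0.08, against 0.00 over all genes. The fold change was above 0 for 37 of the 41.

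The small upward lean in brain rested on 1 library. Without control brain library 1, which had 9117017 counts against 3683842 to 5406430 in the other 5 brain libraries, the median was 0.02 and 22 of the 41 were above 0. By complex, the medians were 0.04 for complex I, 0.01 for complex II, 0.06 for complex III, 0.10 for complex IV and 0.09 for complex V. In 6 genes every SMA brain library lay above every control brain library, and in 0 genes below. Among all genes with at least 20 counts these shares were 4.16% and 7.43%. The 6 were Ndufs3, Uqcrc1, Cox8a, Atp5d, Atp5g1 and Atp5g3.

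In spinal cord the same comparison gave larger differences. By edgeR, 8 of the 41 genes (19.5%) had an unadjusted p below 0.05 with a higher level in SMA, against 3.73% of all genes. None had one with a lower level, against 3.26% of all genes. None of the 10481 genes reached an adjusted p below 0.05 (733 had an unadjusted p below 0.05), and the smallest adjusted p was 0.684. DESeq2, which left the adjusted p of 8133 genes undefined, called 57 genes and 1 of the 41, Atp5b (DESeq2, adjusted p = 0.0156). The median log2 fold change of the 41 was 0.19, against -0.01 over all genes, and 39 of the 41 were above 0.

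Of the 8 genes, 5 encode ATP synthase subunits. Atp5b (ENSMUSG00000025393), the catalytic beta subunit, was at 710.1, 655.2 and 713.2 CPM in control and at 813.6, 828.9 and 836.2 CPM in SMA spinal cord, and the groups did not overlap. Its log2 fold change was 0.24 ± 0.06 (SE), the smallest p of the 41 by edgeR (adjusted p = 0.684, as for all 8 genes). Atp5a1 (ENSMUSG00000025428), the alpha subunit that alternates with beta in the catalytic ring, was at 652.5, 694.5 and 744.3 CPM in control and at 808.0, 803.5 and 861.1 CPM in SMA. It differed by 0.23 ± 0.06 on the log2 scale, again without overlap. These 2 kept an unadjusted p below 0.05 whichever of the 6 libraries was left out, and the other 6 did not.

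Atp5h (ENSMUSG00000034566), a subunit of the peripheral stalk, was at 313.1, 340.7 and 338.1 CPM in control and at 352.2, 422.2 and 444.8 CPM in SMA, a log2 difference of 0.29 ± 0.10. Atp5o, which joins the stalk to the catalytic head, was at 273.8, 323.7 and 321.5 CPM in control and at 330.2, 396.6 and 388.9 CPM in SMA, a log2 difference of 0.27 ± 0.10. All SMA libraries of both genes lay above all control libraries. Atp5g3, one of the genes for subunit c of the membrane rotor, was at 189.5, 217.0 and 232.1 CPM in control and at 230.1, 297.5 and 271.4 CPM in SMA. Its log2 difference was 0.31 ± 0.12, and SMA library 1 lay below the highest control.

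Outside ATP synthase, Cox4i1 (ENSMUSG00000031818), a regulatory subunit of complex IV, had the largest log2 fold change of the 41, 0.43 ± 0.16. It was at 323.9, 424.6 and 392.3 CPM in control and at 416.0, 613.1 and 518.5 CPM in SMA, where library 1 overlapped the controls. Cyc1 of complex III and Cox8a of complex IV had log2 fold changes of 0.21 ± 0.08 and 0.29 ± 0.12. With a log2 fold change of at least 0.3 required as well, 2 of the 41 remained (4.88%, against 2.05% of all genes), Cox4i1 and Atp5g3, and with 0.5 none did, against 0.983% of all genes in either direction.

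By complex, the median log2 fold changes were 0.24 for complex V, 0.23 for complex IV, 0.15 for complex III, 0.09 for complex I and 0.04 for complex II, and neither complex I nor complex II had a gene with an unadjusted p below 0.05. Ndufs1 was at 252.5, 251.3 and 250.7 CPM in control spinal cord and at 260.1, 227.0 and 267.6 CPM in SMA, with a fitted log2 difference of -0.01 ± 0.08. In 13 of the 41 genes (31.7%) every SMA spinal cord library lay above every control library, against 8.40% of all genes with at least 20 counts, and in 0 genes below, against 6.33%. No test compared the complexes with each other.

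**Figure D2:**
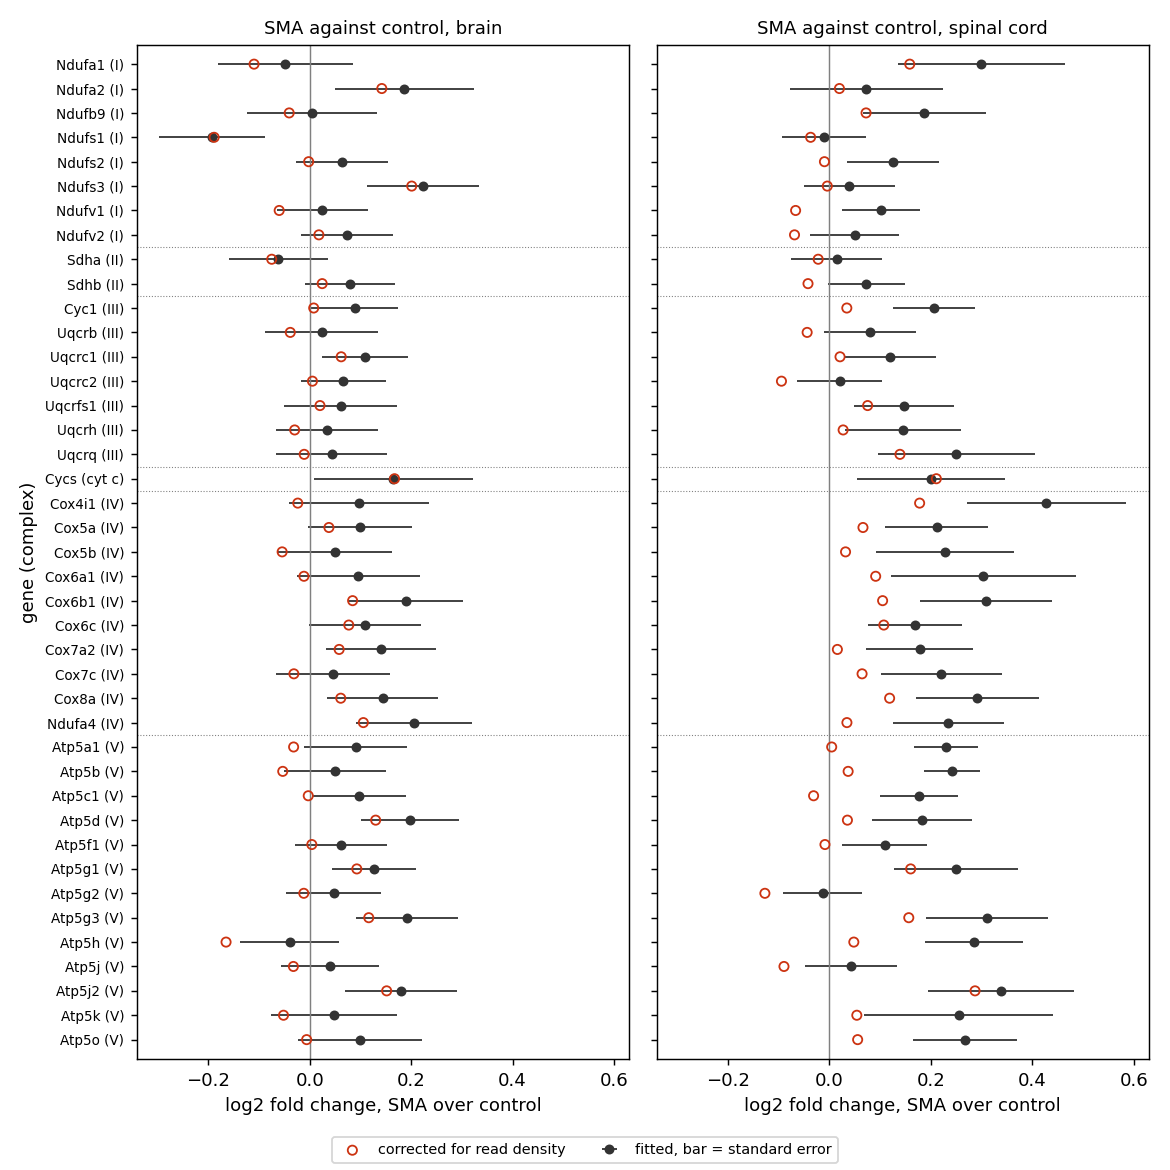
Log2 fold change of SMA over control for each of the 41 genes, by complex, in brain (left) and spinal cord (right). Filled points are fitted values with bars of 1 standard error, and open red circles are the values after a correction for read density (counts per base of exon) in each library. The spinal cord points lie above 0 for 39 genes, and most red circles lie closer to 0.

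The share of a library's footprints that fell on the 41 genes gives the same contrast as 1 value per library. In spinal cord the share was 0.786%, 0.861% and 0.878% in control and 0.891%, 0.987% and 0.964% in SMA. The groups did not overlap, and the means were 0.842% ± 0.0488 and 0.947% ± 0.0503 (SD, n = 3 each). The difference was 0.106 percentage points, and 0.0777 without control library 1. In brain the share was 0.832%, 0.932% and 0.944% in control and 0.947%, 0.916% and 0.955% in SMA, and the groups overlapped. The genes were listed with earlier results of these data known, so no p is given for this sum.

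Within each group, the deepest library had the lowest share of footprints on these genes. The lowest share in brain was that of the deepest brain library and the lowest in spinal cord that of the deepest spinal cord library. Control brain library 1 had 2.17 times the total of control brain library 3, but the raw count of the median gene of the 41 was only 1.91 times as high, while over all genes with at least 20 counts the median ratio was 2.29. Control spinal cord library 1, the one with the high Otx2 level, had 1.24 times the total of control spinal cord library 3. The median gene of the 41 had 1.06 times the raw count, against 1.23 for all genes. SMA spinal cord library 1 had 1.56 times the total of SMA spinal cord library 2, and the median gene of the 41 had 1.36 times the raw count, against 1.55 for all genes. Of the 41, 28, 36 and 34 lay below the ratio of the totals in these pairs, each of which lies within 1 group.

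**Figure D3:**
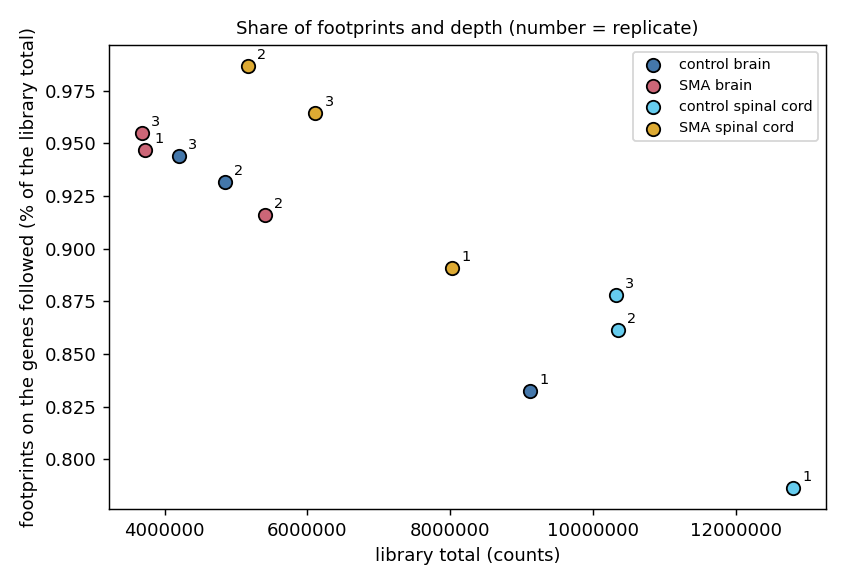
Share of each library's footprints on the 41 genes (percent of the total, vertical axis, not starting at 0) against the library total (counts, horizontal axis), with 1 point per library, numbered by replicate and coloured by group. The deepest library, control spinal cord 1, has the lowest share, 0.786%, and no SMA library is as deep as any control spinal cord library.

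Read density is the number of counts per base of exon. When the slope of levels on read density was removed from each library before the edgeR fit, the spinal cord median was 0.03 in place of 0.19, and 28 of the 41 stayed above 0. By complex it was 0.04 for V, 0.08 for IV, 0.03 for III, -0.01 for I and -0.03 for II. None of the 8 genes kept an unadjusted p below 0.05. Atp5j2, another membrane subunit of ATP synthase, was the 1 gene of the 41 below it (log2 0.29), against 615 of all 10481 genes. In brain the median became -0.00, with 20 genes above 0. There 1 gene of the 41, Atp5h, had an unadjusted p below 0.05, with a lower level in SMA (log2 -0.17), against 577 of all genes. Without control spinal cord library 1 and with no such correction, the spinal cord median was 0.13. In that run 2 of the 41 genes, Atp5a1 and Atp5b, had an unadjusted p below 0.05, against 391 of all 10481 genes. The correction also takes out any genotype difference that genes of like read density share, so it cannot separate depth from genotype. SMA genotype and lower depth cannot be told apart in these spinal cord libraries, and the part of depth in the difference was not tested.

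Markers of other cells moved too. Of the 2 erythroid genes with a name, the anion exchanger Slc4a1 was higher in SMA spinal cord by 2.08 ± 0.57 (log2, SE; unadjusted p below 0.05, adjusted p = 0.684 in edgeR), while the erythropoietin receptor Epor had a difference of -0.77 ± 0.92. They summed to 1.23 to 2.81 CPM in control and 3.30 to 10.9 CPM in SMA. Slc4a1 alone was at 1.75, 1.22 and 1.04 CPM in control and at 10.7, 2.72 and 3.60 CPM in SMA. These levels were low, and SMA library 1 stood far above the others. The 4 neuronal genes with a name summed to 3229 to 4041 CPM in control and 3782 to 4389 CPM in SMA spinal cord, and none had an unadjusted p below 0.05.

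The 5 progenitor genes summed to 762.8 to 849.0 CPM in control and 797.0 to 869.6 CPM in SMA spinal cord, but did not move together. The progenitor filament gene Nes was lower in SMA by 0.41 on the log2 scale in spinal cord and by 0.33 in brain, the glutamate transporter gene Slc1a3 was higher in spinal cord by 0.24, and each had an unadjusted p below 0.05 in edgeR. The dividing-cell gene Top2a was at 160.4 CPM in control spinal cord library 1 and at 29.4 and 36.3 CPM in the other controls. The collagen gene Col1a1, the 1 vessel and meninges gene with a name, had a log2 difference of -0.95 ± 0.35 in SMA brain with an unadjusted p below 0.05 in edgeR. The part of these cells in the values of the 41 genes was not tested.

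Whether the SMA difference itself was unlike in the 2 tissues was asked with an interaction term over all 12 libraries. In edgeR 1 of the 41 genes (2.44%, against 1.44% of all genes) had an unadjusted p below 0.05 in the direction of a higher value in spinal cord, and 0 in the other direction, against 0.935%. This was Atp5h, whose SMA effect was higher in spinal cord than in brain by 0.35 ± 0.14 on the log2 scale (edgeR, adjusted p = 1). In brain, Atp5h was at 380.6, 452.4 and 460.6 CPM in control and at 413.4, 397.3 and 433.9 CPM in SMA, so that the groups overlapped. The median interaction was 0.14 for the 41 genes and 0.03 for all genes. Without control spinal cord library 1 the median was 0.07 and no gene of the 41 had an unadjusted p below 0.05. Atp5h also lost it without SMA brain library 2, control brain library 2 or 3, or SMA spinal cord library 2 or 3. The median was 0.05 without SMA spinal cord library 2 and 0.05 with the correction for read density. With that correction Atp5h kept an unadjusted p below 0.05 in edgeR, with a value of 0.20. It was the 1 gene of the 41 to do so, against 286 of all 10481 genes.

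Spinal cord was then compared with brain within each genotype. These comparisons share no library, and the tissues differed widely: 38.4% of all genes in control and 36.7% in SMA had an adjusted p below 0.05 in edgeR. Of the 41 genes, 4 (9.76%) did so in control and 6 (14.6%) in SMA. The counts moved with single libraries and were 12 in control without control brain library 1 and 1 in SMA without SMA brain library 1. Over all genes they were then 3775 and 2628. Median log2 differences (spinal cord over brain) of the 41 were -0.11 in control and -0.04 in SMA.

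Ndufs1 (ENSMUSG00000025968) differed most clearly. It was at 213.7, 172.9 and 188.8 CPM in control brain and at 252.5, 251.3 and 250.7 CPM in control spinal cord, a log2 difference of 0.40 ± 0.09 (edgeR, adjusted p = 0.0110). In SMA it was at 156.1, 159.0 and 184.1 CPM in brain and at 260.1, 227.0 and 267.6 CPM in spinal cord, a log2 difference of 0.61 ± 0.10 (edgeR, adjusted p = 0.00310). No brain library reached the lowest spinal cord library in either genotype. Under each alternative run, including each library left out and the correction for read density, Ndufs1 kept an adjusted p below 0.05, with differences of 0.34 to 0.48 in control and 0.52 to 0.68 in SMA.

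Another complex I gene, Ndufb9, a membrane-arm subunit, was at 50.8, 50.9 and 51.5 CPM in control brain and at 52.1, 66.2 and 61.6 CPM in control spinal cord, where the edgeR fit gave no adjusted p below 0.05. In SMA it was at 43.2, 57.2 and 50.8 CPM in brain and at 61.0, 71.5 and 74.3 CPM in spinal cord, a log2 difference of 0.45 ± 0.13 (edgeR, adjusted p = 0.0278). Spinal cord libraries lay above brain libraries without overlap in both genotypes. Ndufa2, a subunit of the complex I matrix arm, went the other way. It was at 39.4, 34.3 and 33.2 CPM in SMA brain and at 22.6, 27.6 and 24.7 CPM in SMA spinal cord, a log2 difference of -0.51 ± 0.13 (edgeR, adjusted p = 0.0176), and in control its fitted difference was -0.42 ± 0.15 (adjusted p = 0.0543). Complex I genes were spread in both directions, from -0.42 to 0.40 in control and from -0.51 to 0.61 in SMA.

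In complex III, Cyc1 was at 252.6, 260.1 and 268.6 CPM in SMA brain and at 305.5, 320.1 and 315.7 CPM in SMA spinal cord, a log2 difference of 0.28 ± 0.07 (edgeR, adjusted p = 0.0164). Its fitted difference in control was 0.13. Without SMA brain library 1, Ndufb9, Ndufa2, Cyc1, Atp5j and the subunit c gene Atp5g1 no longer had an adjusted p below 0.05 in SMA, with adjusted p from 0.0605 to 0.147 in edgeR, and Ndufs1 did. The complex II subunit Sdhb was higher in every spinal cord library than in every brain library of the same genotype, at 160.1 to 177.6 against 151.3 to 158.3 CPM in control and 175.5 to 184.9 against 154.8 to 167.9 CPM in SMA, but the test was not passed in either.

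Genes of complexes IV and V leaned towards brain in control. The complex IV subunit Cox5b was at 259.7, 303.0 and 312.0 CPM in control brain and at 203.8, 243.1 and 229.8 CPM in control spinal cord, a log2 difference of -0.36 ± 0.11 (edgeR, adjusted p = 0.0324). Atp5h had a log2 difference of -0.37 ± 0.10 (edgeR, adjusted p = 0.0207) and Atp5b one of -0.32 ± 0.10 (edgeR, adjusted p = 0.0429). Neither gene passed in SMA. In SMA the stalk gene Atp5j had a log2 difference of -0.26 ± 0.09 (edgeR, adjusted p = 0.0468; with the replicate number as a block, -0.26 and adjusted p = 0.0736). Cell type markers differed as well, and not in the same direction. Of the 4 neuronal genes, 2 were higher in spinal cord and 1 lower, in each genotype (edgeR, adjusted p below 0.05). Of the 5 progenitor genes, 1 was higher and 2 lower in control, and 1 higher and 3 lower in SMA, by the same test. The neurofilament gene Nefl was higher in spinal cord by 1.95 in control and 2.20 in SMA. Nes differed by -1.21 and -1.26, and Col1a1 by 2.04 and 2.30. Each of these had an adjusted p below 0.05 in edgeR. The part of cell composition was not tested.

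These lower values did not hold under the correction for read density. The control spinal cord libraries were deeper than all control brain libraries, so tissue and depth cannot be told apart there. The correction also takes out tissue differences that genes of like read density share. The part of depth was not tested. With the correction for read density, Cox5b, Atp5h and Atp5b no longer had an adjusted p below 0.05 in control, where Atp5h and Atp5b had differences of 0.03 and 0.04. Atp5j in SMA then had -0.10 (edgeR, adjusted p = 0.348). The medians of the 41 genes became 0.12 in control and 0.15 in SMA. In that fit 10 genes in control and 13 in SMA had an adjusted p below 0.05, against 4038 and 3946 of all 10481 genes. All 10 in control and 12 of the 13 in SMA were higher in spinal cord. The 10 were Cox5a, Atp5c1, Atp5d, Atp5g1, Ndufb9, Ndufs1, Ndufv1, Ndufv2, Sdhb and Cyc1, of which only Ndufs1 had passed in control without the correction. Ndufb9, Cyc1 and Atp5g1 then had control differences of 0.42, 0.42 and 0.35 (edgeR, adjusted p = 0.0129, 0.00458 and 0.0178). Without control spinal cord library 1 the control median was -0.08, and 4 of the 41 genes had an adjusted p below 0.05, 3 higher and 1 lower in spinal cord. Of all 10481 genes, 3848 then had one.

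**Figure D4:**
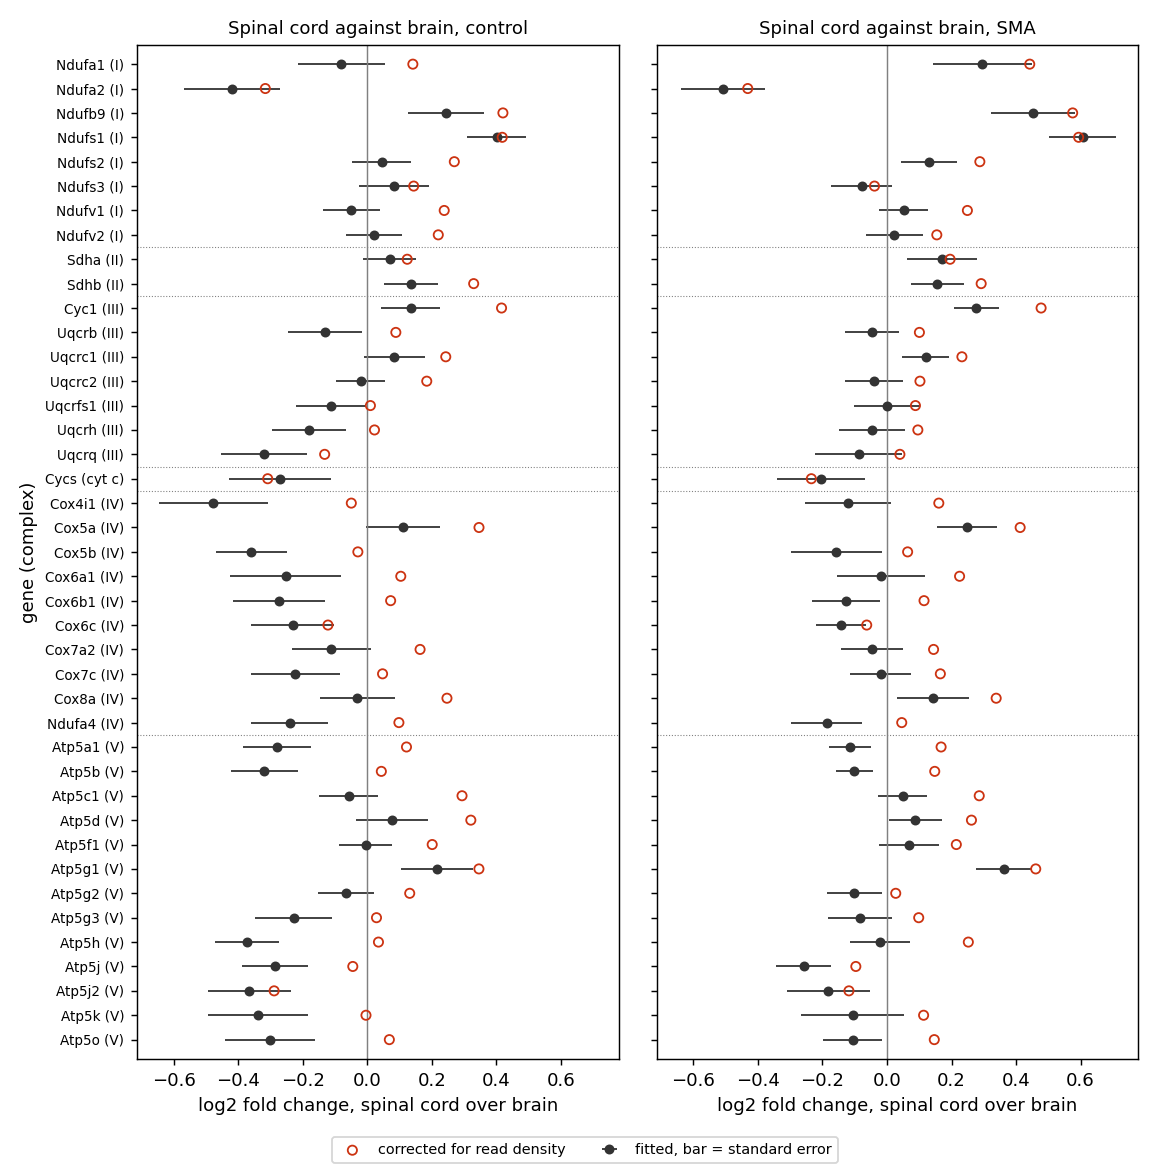
Log2 fold change of spinal cord over brain for each of the 41 genes, by complex, in control (left) and SMA (right). Filled points are fitted values with bars of 1 standard error, and open red circles are the values after the correction for read density. Ndufs1 lies at 0.40 in control and 0.61 in SMA with its red circles beside it, and for most genes of complexes IV and V the red circle lies to the right of the point.

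The genes Atp5g1, Atp5g2 and Atp5g3 encode near-identical mature copies of subunit c, the proton-carrying rotor protein, and differ mainly in the import signals that are cut off. Reads with up to 5 alignments were kept by the authors, so the split between such copies, and between any member and a processed pseudogene, is uncertain. Of all subunit c footprints, Atp5g1 took 36.8% to 40.9% in control brain and 42.7% to 47.6% in control spinal cord. In SMA it took 37.6% to 39.9% in brain and 46.2% to 46.6% in spinal cord. The tissues did not overlap in either genotype.

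Atp5g3 had the opposite order. It took 41.0% ± 2.66 (SD, n = 3) of subunit c footprints in control brain and 35.3% ± 0.573 in control spinal cord, and 42.6% ± 0.394 and 37.4% ± 1.42 in SMA, without overlap between the tissues in either genotype. Atp5g2 took 19.9% ± 0.656 and 19.3% ± 2.53 in control, with overlap between the tissues, and 18.7% ± 0.769 and 16.3% ± 1.24 in SMA, without it. The level of Atp5g1 itself was 252.1, 253.5 and 267.2 CPM in SMA brain and 299.7, 359.5 and 328.8 CPM in SMA spinal cord, a log2 difference of 0.36 ± 0.08 (edgeR, adjusted p = 0.0124). In control it was 236.5, 243.1 and 235.7 CPM in brain and 230.0, 297.1 and 297.5 CPM in spinal cord, where library 1, the one with the high Otx2 level, was the lowest of all 6, and the adjusted p did not pass.

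**Figure D5:**
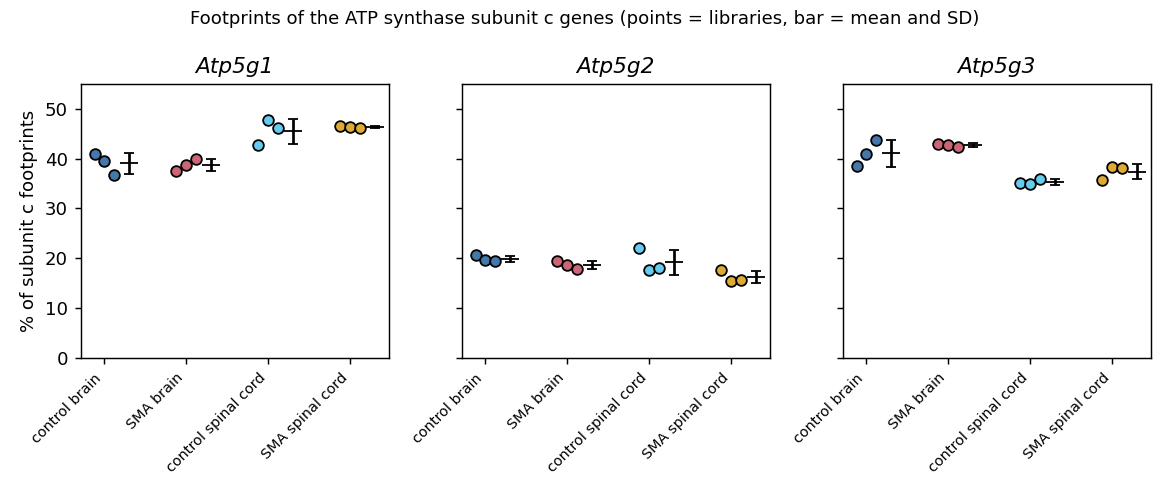
Percent of all subunit c footprints (vertical axis, from 0) taken by Atp5g1, Atp5g2 and Atp5g3 in each group. Points are libraries, and the bar beside them is the mean with the SD of 3 libraries. Atp5g1 is higher and Atp5g3 lower in spinal cord than in brain in both genotypes, with no overlap for either gene.

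Other genes of the pathway could be followed only where a gene name was at hand. Of 30 further complex I subunits 8 were followed. In SMA spinal cord 7 of the 8 had a value above 0, and 1, Ndufa11, a membrane-arm subunit, had an unadjusted p below 0.05 in edgeR (log2 0.33). In brain the only one was Ndufs6, with 0.31. Of 19 further subunits of complexes II to V 4 were followed, and all 4 lay above 0 in both tissues with none below that p. None of 6 assembly factors (of 49) had an unadjusted p below 0.05 between the genotypes. Of 10 regulators of these genes 3 were followed: Gabpa, the DNA-binding subunit of GABP, differed in spinal cord by -0.38 ± 0.11 (edgeR, adjusted p = 0.684) and Tfam, which packages and transcribes mitochondrial DNA, in brain by -0.29 ± 0.12 (edgeR, adjusted p = 0.902), both with an unadjusted p below 0.05. The 13 mitochondrially encoded subunits had no followed gene.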

How the data were processed

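The deposited table held whole-number footprint counts per gene for 12 libraries, with gene identifiers and exon lengths. The authors trimmed reads with Cutadapt 4.1, removed rRNA and tRNA reads, aligned the rest with STAR 2.5.3a to GRCm38.p6 (Gencode annotation) allowing several alignments per read, and kept 10481 genes by expression. Reads at the same transcript position were removed before positional analyses. The tool that produced the counts, and whether it ran before or after this removal, is not given in the sources used here.

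Each tissue, and each genotype for the tissue comparisons, was fitted separately over all genes in edgeR 4.0.16 (R 4.3.3; TMM factors, glmQLFit in its legacy form, glmQLFTest), two-sided, with Benjamini-Hochberg adjustment over all genes. The unadjusted p threshold of 0.05 and the log2 thresholds of 0.3 and 0.5 are those of the study's methods, and log2 fold changes are given with standard errors. In spinal cord 103 of all 10481 genes passed the rule with 0.5 here. The study reports a longer list for that tissue, so its list is not reproduced by this fit. CPM and RPKM were computed here from the deposited counts with TMM factors over 12 libraries. Coding lengths were not at hand, so exon length was used. Alternatives were DESeq2 1.42.0, other normalizations, filters and fits, a replicate block, each library left out, and a loess offset (span 0.5) that removes, within each library, the slope on read density (log counts per base of exon). The offset was fitted to each gene's deviation from its mean over the libraries compared. It therefore also takes out group differences that genes of like read density share. The fits were tested on simulated data. Members, gene lists and tests were chosen with earlier results of these data known. Statistics were given in full for at most 6 genes per direction and comparison, for the extremes of each complex and for subunit c.

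Names came from a supplementary table that named 1999 genes. It named 16 of the 41 genes, and all 16 matched the list. The other names are those of the list. The labels number the libraries 1 to 3 in each group. Deviations of same-numbered SMA brain and spinal cord libraries had r = 0.35, 0.11 and 0.15 over genes. SMA brain library 3 had a larger r with SMA spinal cord library 2 (0.20). Same-numbered control brain and spinal cord libraries had r = 0.11, 0.0096 and 0.13, and those of SMA against control were not all positive. Whether the numbers pair libraries is not settled by these values. Replicates differed beyond counting noise in each group, with a mean chi-square per gene of 3.93 to 23.4 over pairs of libraries. The study's methods give 3 embryos per genotype, and whether both tissues came from the same embryos is not given in the sources used here. Precision is limited by 3 libraries per group and by counting error in the lower counts. One marker gene is not reported here.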

Additional observations from a re-analysis of the deposited data

How the results depend on the processing

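Over the results that answer a comparison, 120 values under an alternative were classed as the same. A count of genes was classed so when it stayed within a fixed factor of the main count. A median or share was classed so when it kept its direction and shifted by less than the SD between libraries. Of the other values, 17 were smaller counts and 20 larger counts, 4 changed direction and 2 shifted by more than that SD. For named genes 234 values kept their direction and a p below the threshold of their comparison, 73 lost the threshold and 2 changed direction.

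With the correction for read density, the medians were -0.00217 (SMA against control, brain), 0.0344 (spinal cord), 0.12 (spinal cord against brain, control) and 0.15 (SMA), and the numbers of genes below the threshold were 1, 1, 10 and 13. Over all 10481 genes these numbers were 577, 615, 4038 and 3946. In control, Atp5h then had 0.0348 and Atp5b 0.0437. Upper-quartile factors gave 1 gene in the brain comparison, 0 for the interaction, 9 for the tissues in control and a median of -0.13 in SMA. For SMA against control in spinal cord, DESeq2 gave 13 genes and 1 fit over all 12 libraries 14, against 736 and 938 of all genes. For the tissues in control these gave 8 and 9, against 4001 and 4309 of all genes.

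With each library left out in turn, the number of genes ran from 0 to 3 (SMA against control, brain), 2 to 18 (spinal cord), 0 to 4 (interaction), 1 to 12 (tissues, control) and 1 to 7 (tissues, SMA), and the tissue median in SMA from -0.0780 to 0.0215, the latter without SMA spinal cord library 1. Over all genes, those with an unadjusted p below 0.05 ran from 450 to 612 (SMA against control, brain), 391 to 1216 (spinal cord) and 190 to 423 (interaction). In spinal cord the 18 came without SMA library 1, against 1216 of all genes. The 2 came without SMA library 2, SMA library 3 or control library 1, against 423, 393 and 391 of all genes. For the tissues in control, 12 came without brain library 1, 1 without brain library 2 or 3 and 2 without spinal cord library 3. Over all genes these runs gave 3775, 2550, 2596 and 3159. For those in SMA, 1, 3 and 2 came without brain library 1, brain library 2 and spinal cord library 3, against 2628, 2790 and 2895 of all genes.

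With the replicate number as a block the counts were 22 (SMA against control, spinal cord), 2 (interaction), 15 (tissues, control) and 5 (tissues, SMA). Over all genes the same runs gave 1438, 313, 4489 and 3745. In the tissue comparison in SMA, Atp5j lost its call and no other called gene did. Whether the numbers pair libraries is not settled in any comparison. In the SMA against control comparison of brain, the block gave 0 genes. The cause of these changes was not tested. At 3 libraries per group, differences the size of most of those seen here could not be told from replicate spread.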

Other observations

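The enzymes of the tricarboxylic acid cycle, which feeds electrons to complexes I and II, differed between the tissues. Of the 13 genes listed, 8 had a name in the table, and all 8 had a higher fitted level in spinal cord than in brain in both genotypes, with median log2 differences of 0.29 in control and 0.29 in SMA. By edgeR, 4 rose with an adjusted p below 0.05 in control and 5 in SMA, where 20.4% and 19.5% of all genes did. The correction for read density was not summarised for these genes. Ogdh, the first subunit of the oxoglutarate dehydrogenase complex, was higher by 0.60 ± 0.08 in control (adjusted p = 0.00113) and by 0.46 ± 0.09 in SMA (adjusted p = 0.00489). Dlst, the core of the same complex, was higher by 0.39 ± 0.08 in control (adjusted p = 0.00766) and 0.42 ± 0.11 in SMA (adjusted p = 0.0175), and Sucla2, the ATP-forming succinyl-CoA ligase subunit, by 0.52 ± 0.10 and 0.39 ± 0.11. Citrate synthase, Cs, had differences of 0.03 in both. Whether the cycle and the respiratory chain differed from each other was not tested.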
